A study of Mus musculus with 2 samples.

Results

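Processed pseudogenes with reads were examined in long-read RNA libraries of mouse heart. Members were the genes that the annotation types as processed_pseudogene or transcribed_processed_pseudogene and they were chosen by their counts, which had to reach 3 when summed over all transcript models and both libraries. Of 10237 such annotated genes, 498 had any count and 245 were members, 216 of the first type and 29 of the second. Levels are therefore given as a description with no test. Both libraries came from hearts of male B6CASTF1/J mice aged 14 days and form 1 group, biological replicates 1 and 2. B6CASTF1/J is the first-generation cross of a laboratory mouse strain with the wild-derived CAST strain, so these hearts carry both parental genomes, whereas the annotation describes the C57BL/6J reference. The labels give the same donor for both libraries and speak of 3 males per tissue sample, with no word on pooling. Their tissue samples are numbered differently, but the library description repeats 1 tissue sample and the same pair of cDNAs, so the spread between the libraries may be partly technical. Each library was made from 2 µg of total RNA with spike-ins added.

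Processed pseudogenes are copies of spliced messenger RNAs that were reverse-transcribed and inserted back into the genome, in mammals by the machinery of LINE-1 elements. They lack the introns of the parent gene and as a rule its promoter, and most acquire mutations that break the reading frame. Abundant short messenger RNAs, above all those of ribosomal proteins and of the glycolytic enzyme Gapdh, have left the most copies. The sequence of a young copy is nearly that of the parent's spliced RNA, so the assignment of a read to the copy or to the parent can rest on a few bases, and the division of counts between them is uncertain throughout.

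Library depth was 1059016 counts on reference genes in replicate 1 and 1064679 in replicate 2, so that 1 count equalled 0.944 and 0.939 CPM (counts scaled to 1000000 reference-gene counts). Each count is 1 read of a cDNA, and values were not divided by transcript length. All 6 heart muscle markers were detected, with summed levels of 30296 CPM in replicate 1 and 32447 CPM in replicate 2, led by Myh6. The 3 red blood cell markers summed to 14189 and 10470 CPM, the 3 fibroblast markers to 1305 and 1286 CPM, and the 3 endothelial markers to 395 and 409 CPM.

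The sequences that the results turn on differ from the coding gene by no base or by very few. They are the annotated transcripts of GENCODE M21 (build mm10), written 5′ to 3′ in lower case, with the bases at which copy and coding gene differ in capitals. Gm12338 (chr11:75599763-75599954, minus strand) is the copy of Cox7c, a subunit of cytochrome c oxidase. It equals the coding sequence of Cox7c letter for letter, so the shared sequence is shown once.
Gm12338: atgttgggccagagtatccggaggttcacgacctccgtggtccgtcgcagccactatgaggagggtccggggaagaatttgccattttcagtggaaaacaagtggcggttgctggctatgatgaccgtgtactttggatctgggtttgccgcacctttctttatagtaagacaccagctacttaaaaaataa
The next set shows the stretch around the single base by which 3 copies of Gapdh differ from the parent's coding sequence, with 30 bases on each side. Gm12033 (chr11:20335012-20336013, minus strand) carries T504C, Gm5559 (chr5:95861714-95862715, plus strand) carries T385A and Gm13394 (chr2:28933610-28934609, minus strand) carries A346C, where the coding gene's base stands first and positions count from the first base of the copy.
Gm12033: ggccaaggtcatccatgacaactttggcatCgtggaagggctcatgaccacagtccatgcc
Gapdh at Gm12033: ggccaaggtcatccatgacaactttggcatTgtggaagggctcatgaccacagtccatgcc
Gm5559: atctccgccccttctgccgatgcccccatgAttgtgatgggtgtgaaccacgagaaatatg
Gapdh at Gm5559: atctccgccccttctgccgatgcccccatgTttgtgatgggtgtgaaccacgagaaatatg
Gm13394: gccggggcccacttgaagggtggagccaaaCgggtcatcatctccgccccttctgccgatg
Gapdh at Gm13394: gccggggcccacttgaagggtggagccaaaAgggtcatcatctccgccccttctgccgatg
Gm15459 (chr5:5781615-5783555, minus strand), the member with the highest count, differs from the coding sequence of Hspa8, a constitutive heat shock chaperone, at 5 of its 1941 bases (G114A, C414T, C549T, G1222A and C1440T). Mpc1-ps (chr12:110858565-110858894, minus strand) differs from Mpc1, a subunit of the mitochondrial pyruvate carrier, only by G41A in 330 bases. The windows around the first difference of each are shown.
Gm15459: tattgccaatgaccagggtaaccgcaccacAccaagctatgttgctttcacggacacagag
Hspa8: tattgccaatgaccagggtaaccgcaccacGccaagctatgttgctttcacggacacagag
Mpc1-ps: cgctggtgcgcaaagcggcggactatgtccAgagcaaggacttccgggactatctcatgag
Mpc1: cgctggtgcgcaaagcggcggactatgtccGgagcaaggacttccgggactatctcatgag
Gm10774 (chr2:126709354-126709557, minus strand), which differed most between the libraries towards replicate 2, differs by G82A from the coding sequence of Polr2l, a small subunit shared by the RNA polymerases, over its 204 bases.
Gm10774: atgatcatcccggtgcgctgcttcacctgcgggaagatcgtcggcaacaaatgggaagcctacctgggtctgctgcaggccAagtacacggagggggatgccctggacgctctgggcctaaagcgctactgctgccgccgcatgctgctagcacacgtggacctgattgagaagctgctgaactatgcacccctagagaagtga
Polr2l: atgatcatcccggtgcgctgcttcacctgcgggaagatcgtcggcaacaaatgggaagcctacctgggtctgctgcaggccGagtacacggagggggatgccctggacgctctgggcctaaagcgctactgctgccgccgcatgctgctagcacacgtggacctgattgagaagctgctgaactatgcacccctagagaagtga

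Members together held 11766 counts in replicate 1 and 11343 in replicate 2. This was 1.11% (exact 95% interval 1.09 to 1.13) and 1.07% (1.05 to 1.09) of the counts on reference genes. The share averaged 1.09% ± 0.0323 (SD, n = 2). Counts were concentrated in few members: the 5 highest held 35.5% of all 23109 member counts, the 10 highest 50.4% and the 20 highest 65.3%. A summed count of at least 100 was reached by 48 members and of at least 10 by 138, and the median member had 14 counts (quartiles 5 and 63). The median level was 6.59 CPM for members and 18.8 CPM for protein-coding genes with the same minimum count. Counts fell in both libraries for 232 members, in replicate 1 alone for 5 and in replicate 2 alone for 8, and none of these 13 exceeded a summed count of 5. Just inside the threshold lay 36 members with exactly 3 counts, and just outside it 66 pseudogenes with exactly 2.

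Gm15459, the Hspa8 copy, had 1331 counts in replicate 1 and 1932 in replicate 2, or 1536 ± 394 CPM (SD, n = 2). It alone held 14.1% of all member counts. Gm12671, a copy of Gapdh, had 921 and 913 counts, and Gm12033, another copy of Gapdh, had 545 and 525. Both Gapdh copies had nearly equal counts in the libraries, whereas Gm15459 had fewer in replicate 1. Mpc1-ps had 574 and 456 counts and Gm12338, the Cox7c copy, 616 and 392. Both had more counts in replicate 1. Gm10123, the copy of the cyclophilin gene Ppia, had 406 and 369 counts. Among the copies of ribosomal protein genes, Rpl3-ps1 had 303 counts in each library, Rps2-ps13 had 270 and 293, and Gm8172 (Rps6) had 234 and 243. Gm14539, the copy of Usmg5, which encodes a small protein of the ATP synthase, had 340 and 219 counts. The Gapdh copies Gm5559 and Gm7336 had between 347 and 401 counts per library. The other 8 members among the 20 highest had between 108 and 206 counts per library. They included Oaz1-ps (ornithine decarboxylase antizyme), Gm12138 (Akr1b3, an aldose reductase), Gm10231 (Atp5g2, a subunit c gene of ATP synthase) and Gm10698 (Tmed2, a cargo receptor of the early secretory pathway).

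**Figure D1:**
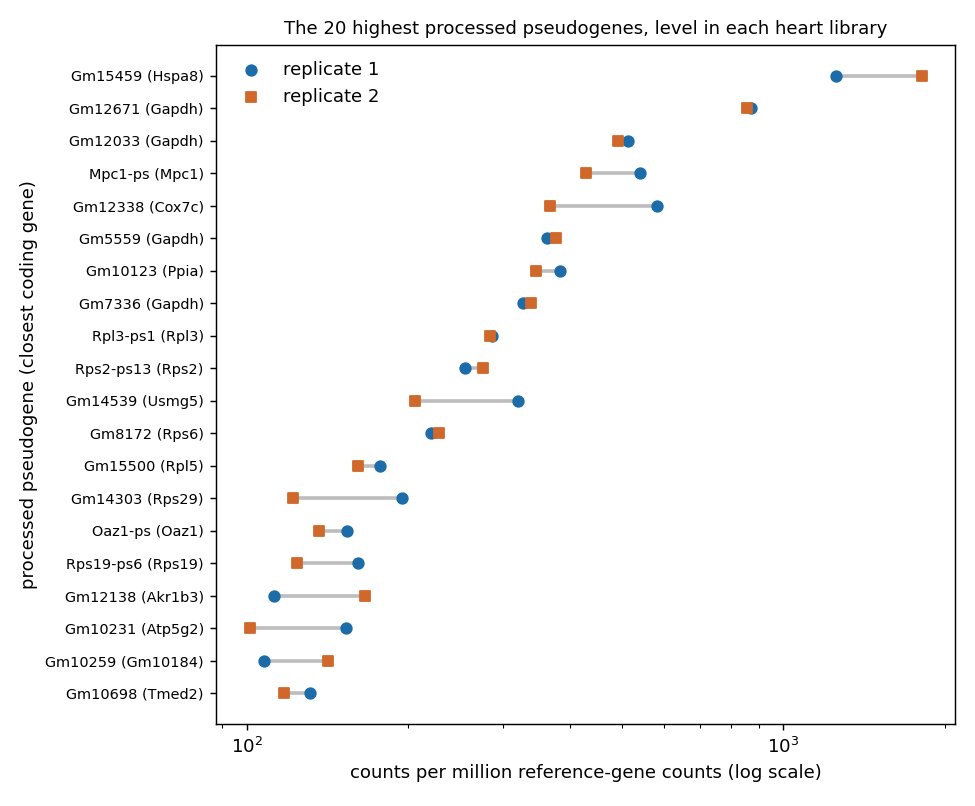
Level of the 20 highest processed pseudogenes in replicate 1 (circles) and replicate 2 (squares), in CPM on a log axis, with the closest coding gene in parentheses. Gm15459 lies rightmost at 1257 and 1815 CPM, and the Gapdh copies lie at nearly the same level in both libraries.

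A closest coding gene, covering at least 50% of the pseudogene's length, was found for 240 of the 245 members and for 9498 of the 9992 other annotated processed pseudogenes. Median identity to it was 99.6% in members (quartiles 98.8 and 99.9) and 88.5% in the others (quartiles 80.8 and 94.3). Identity of at least 99% was found in 174 members (72.5%) and 412 others (4.34%). A copy without any difference over its whole length occurred 52 times among members (21.7%) and 82 times among the others (0.863%). Members of at least 99% identity held 21637 counts, or 93.6% of all member counts. Members had a median length of 555 bases and a GC content of 51.3%, against 529 bases and 47.3% in the others. An open frame of at least 90% of the length of the matched coding sequence was found in 129 members (53.8%) and 612 others (6.44%), counted within the annotated stretch alone. These features were not used to choose members, but near-identical copies are those to which reads of the coding gene can be assigned, and the part of such reads in the counts was not tested.

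The share of annotated copies that reached 3 counts was higher at higher identity and, among the most similar copies, at a higher level of the coding gene. That level is what remained on the coding gene after reads were assigned to its copies, so it is not independent of membership. Gapdh, for example, fell in the class of 10 to 100 CPM with 12.7 CPM, while its member copies held 2245 CPM. Among copies of at least 99.5% identity, 69 of 121 (57.0%) were members where the coding gene had 100 CPM or more, 55 of 140 (39.3%) where it had 10 to 100 CPM, and 10 of 88 (11.4%) below 10 CPM. Among copies of 99 to 99.5% identity 40 of 237 (16.9%) were members, and among those of 98 to 99% it was 22 of 442 (4.98%). Below 90% identity only 18 members were found, with 228 counts in all. Across the 240 matched members the summed count had a Spearman rho of 0.45 with identity and of 0.16 with the level of the coding gene, as a description over genes that share the same libraries and, in part, the same coding gene. Just inside the threshold, median identity was 98.3% at exactly 3 counts, and just outside, at exactly 2, it was 98.7%.

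**Figure D2:**
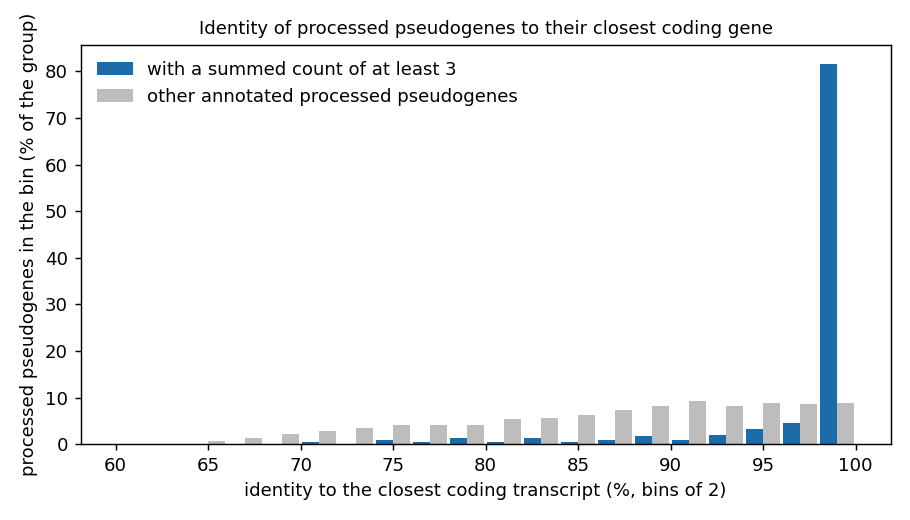
Percentage of processed pseudogenes by identity to the closest coding transcript, in bins of 2%, for the 240 matched members (blue) and the 9498 matched others (grey). In the bin from 98 to 100% lie 81.7% of members and 8.76% of the others.

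Few members had a distant match. 2810025M15Rik, with 56 and 57 counts, matched the ribosomal protein gene Rpl37a at only 78.8%, and Rps4l, with 20 and 28 counts, matched Rps4x at 79.8%, with an open frame of 99.6% of the matched coding length. No coding gene met the cover minimum for 5 members, of which Magef1, of the MAGE family, was highest with 7 and 10 counts, followed by Gm12439 with 5 and 1 and Gm7933 with 2 and 4.

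The 240 matched members traced to 179 coding genes, of which 146 had 1 member and 33 had several. Gapdh, which converts glyceraldehyde 3-phosphate in glycolysis, had the most: of 237 annotated pseudogenes that matched it best, 15 were members. Together these 15 members held 2383 counts in replicate 1 and 2385 in replicate 2, while the Gapdh gene itself had 14 and 13. Of all counts on Gapdh and its member copies, 99.4% were assigned to the copies. Behind Gm12671 and Gm12033, already given, Gm5559 had 385 and 401 counts, Gm7336 had 347 and 360, and Gm13394 had 127 and 127. The other 10 members of the Gapdh group had 31 counts or fewer in sum. Gapdh-ps15, on chromosome Y, had 2 and 3.

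For 33 members the summed count exceeded that of the coding gene, for 206 it was lower and for 1 it was equal, and the median member had 11.1% of the count of its coding gene. Taken by coding gene, members together exceeded it in 26 of 179 cases. Ribosomal protein genes were among these. The 4 members of Rpl21 held 173 and 119 counts, against 9 and 7 on Rpl21. The 4 members of Rpl17 held 70 and 35, against 7 and 2 on Rpl17, and the 6 members of Rpl35a held 120 and 89, against 12 and 18 on Rpl35a. Gm10259 matched best to Gm10184, a gene annotated as coding with 1 and 2 counts, and itself had 114 and 151. Kpna2-ps, whose symbol names Kpna2, also matched Gm10184 best (92.8%). Whether Gm10184 is the source of these copies was not tested, and Kpna2 was not compared with them. Gm15459 and Hspa8 were nearly level, with 1331 and 1932 counts on the copy and 1309 and 1896 on the coding gene. Mpc1-ps exceeded Mpc1, which had 428 and 366 counts. The reverse held for Oaz1-ps with 163 and 145 counts, against 3135 and 3172 on Oaz1, and for Gm12338, since Cox7c had 1124 and 746.

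**Figure D3:**
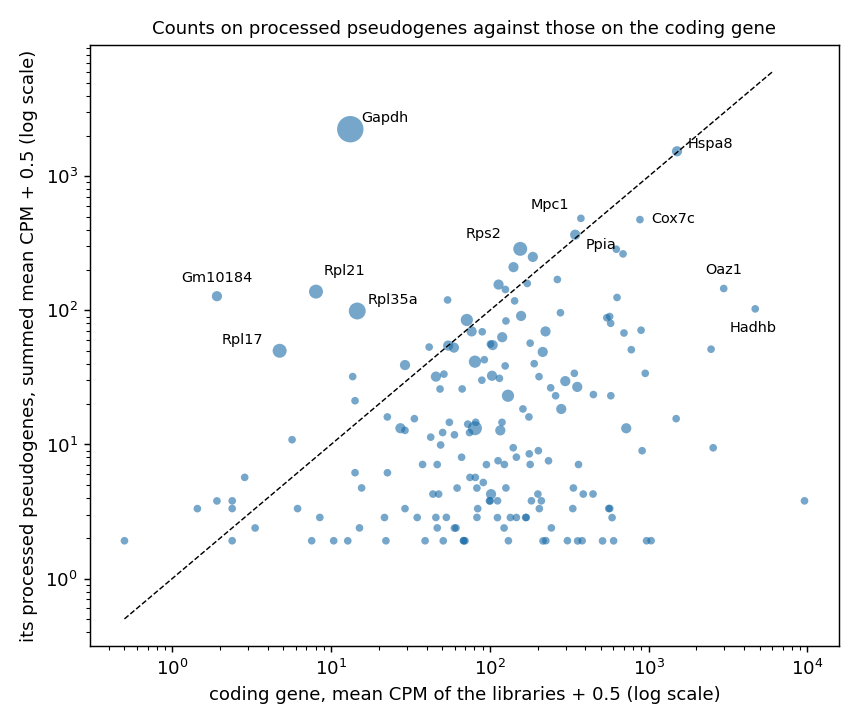
Mean level of each of the 179 coding genes (x axis) against the summed mean level of its member pseudogenes (y axis), in CPM plus 0.5 on log axes, with larger points for coding genes with more members. The dashed line marks equal levels; Gapdh lies far above it at 12.7 CPM, against 2245 CPM on its copies.

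Copies with the same letters did not share their counts evenly. The sets described here were chosen after their values were seen. Gm12671 and Gm10359 are identical to each other and to the Gapdh coding sequence over 1002 bases, yet had 921 and 913 counts, against 16 and 15. Gm13370 and Gm10240, identical copies related to Rpl21, had 63 and 47 counts, against 1 and 4. Gm15801 and Gm8783, both on chromosome 19 and identical to a stretch of the phosphatase gene Ptp4a1, had 61 and 80 counts, against 2 and 4. In each of these pairs the same copy held most of the counts in both libraries. Of 5 identical copies related to Rpl35a, Gm10243 had 97 and 72 counts and the others between 1 and 11 per library. More even divisions were seen for Gm10231 with 162 and 108 and Gm10175 with 105 and 70, both identical to Atp5g2, and for Gm11518 with 32 and 30 and Rpl27-ps3 with 31 and 22, both identical to Rpl27. The bases that flank these copies were not analysed here.

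Coding genes were grouped by their symbols, and genes with other symbols stayed outside these lists whatever their function. Over all 10237 annotated processed pseudogenes, 2.39% were members. Copies of cytosolic ribosomal protein genes were the most frequent members, with 90 of 2453 annotated (3.67%). They held 3085 counts in replicate 1 and 2665 in replicate 2, or 24.9% of member counts. Glycolytic and other metabolic enzymes had 20 members of 375 (5.33%) with 2500 and 2525 counts, nearly all on Gapdh copies. The list of oxidative phosphorylation genes (symbols such as Atp5, Cox, Nduf and Uqcr) had 12 of 252 (4.76%) with 1311 and 865 counts, led within the list by Gm12338, Gm10231 and Gm10221. It does not hold Usmg5, so that Gm14539 is not counted in it. Gm10221, identical to Atp5l of the ATP synthase, had 111 and 79. Chaperones and cyclophilins had 5 of 230 with 1780 and 2348 counts, nearly all on Gm15459 and Gm10123, followed by Hsp25-ps1, the copy of the small heat shock gene Hspb1, with 41 and 43.

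The other groups held few counts. Translation factors had 4 members of 207, of which Eif4a-ps4, a copy of the helicase gene Eif4a1, had 128 and 121 counts. That list does not hold the elongation factor gene Tufm, whose copy Gm9755 had 91 and 112. Chromatin and nucleolar proteins had 7 of 543, led within the list by Gm5641 (Hnrnpa3, an RNA-binding protein) with 31 and 33 and Gm15387 (Hmgb1, a chromatin protein) with 21 and 37. The heterochromatin protein gene Cbx3 is not on it, and its copy Cbx3-ps7 had 50 and 65. Ubiquitin and proteasome genes had 6 of 192, among them Gm1821 (Ubb, a polyubiquitin gene) with 9 and 10. Contractile and cytoskeletal genes, whose messages are abundant in heart, had 4 of 193: Gm17383, a copy of the tubulin gene Tuba1b, had 11 and 12 counts and Gm5526, a copy of the myosin light chain gene Myl6, 5 and 2. Ferritin and redox genes had 2 of 63. Of 40 annotated copies of Slc25 carrier and Vdac channel genes, a list that does not hold Mpc1, none was a member. At the overall share of 2.39%, a list of 40 is too small for this to be read as a lack. The 90 members whose coding gene was on none of these lists were led by Mpc1-ps, Gm14539 and Oaz1-ps.

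Among members whose symbol names a parent, 63 of 68 matched that gene best by sequence. The other 5 carried an older or another family name, for example Hsp25-ps1 for Hspb1 and Amd-ps3 for Amd1, or matched a different copy. After those already given, the highest were Rps19-ps6 with 171 and 132 counts, Rpl15-ps3 with 95 and 93, Vcp-rs, the copy of the ATPase gene Vcp, with 109 and 60, Rpl21-ps15 with 86 and 58, and Rps13-ps1 with 64 and 55. Cbx3-ps7, the copy of a heterochromatin protein gene, had 50 and 65, and Rpl31-ps8 had 75 and 37. Between 18 and 51 counts per library were found on Rpl19-ps11, Rpl17-ps5, Rps23-ps1, Morf4l1-ps1, Rpl28-ps1, Mrpl23-ps1 and Rpl34-ps1.

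Single-exon models held 98.8% of member counts in replicate 1 (exact 95% interval 98.597 to 98.998) and 98.7% in replicate 2 (98.4 to 98.9). In protein-coding genes the shares were 5.31% and 4.93%. Models that the authors class as Known, equal to an annotated transcript, held 99.3% of member counts in each library, against 80.7% and 80.4% in protein-coding genes. Only 4 members had counts on an annotated multi-exon model, so both contrasts with protein-coding genes reflect in part how members are annotated. Models classed Genomic, which overlap a gene without matching its splice pattern, held 56 and 51 member counts, and those with at least 1 unannotated splice site (NNC) 16 and 25. All counts lay on single-exon models in 206 members, on multi-exon models in 10, and on both in 29.

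The multi-exon counts were concentrated in 2 members with annotated spliced models. In 2810025M15Rik the 3-exon model 2810025M15Rik-201 had 53 and 55 of 56 and 57 counts. In Ppp1ccb, which is identical to Ppp1cc, a catalytic subunit of protein phosphatase 1, over the annotated 972 bases, the 2-exon model Ppp1ccb-202 had 15 and 19 of 52 and 68 counts. Beyond annotated models there were 74 new intron chains in 37 members, with 70 counts in replicate 1 and 75 in replicate 2. Only 10 of the 74 occurred in both libraries, judged by chromosome, strand and every intron position. One of them, in the Gapdh copy Gm13292, had 3 and 7 counts, and new models carried 18 of that member's 20 counts. Gm4118, a copy of the proteasome gene Psma2, had 13 of 14 counts on multi-exon models, and Gm8290, Gm7645, AC098880.2, Gm10509 and Gm7117 had all of their 6 to 9 counts there.

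Of the 296 annotated pseudogenes typed as transcribed, 29 (9.80%) were members, against 216 of 9941 (2.17%) of those not so typed. The highest was Gm15500, identical to the ribosomal protein gene Rpl5 over its 894 bases, with 188 and 172 counts. It was followed by Gm10175 (Atp5g2) with 105 and 70, Rpl37rt (Rpl37) with 102 and 71, Gm7666 (Phb, prohibitin of the mitochondrial inner membrane) with 69 and 74 and Ppp1ccb with 52 and 68. Gpx4-ps2, a copy of the glutathione peroxidase gene Gpx4, had 22 and 26. Rps2-ps10, Gm10177 (Sec61g, of the protein translocon), Gm10275 (Rpl12) and Gm6472 (Rps7) had between 5 and 17 per library.

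Relative to coding genes, 158 members (64.5%) lay outside any coding gene body, 62 (25.3%) lay on the opposite strand of a coding gene, 21 (8.57%) in a same-strand intron and 4 (1.63%) over a same-strand exon. Among the 9992 others the shares were 78.3%, 13.5%, 7.69% and 0.580%. Members outside coding genes held 75.3% of member counts and lay a median of 33739 bases from the nearest coding gene, against 43330 bases for the others. Mpc1-ps lay opposite Zfp839, which had 5.64 CPM, Gm12338 opposite Pitpna, which had 209 CPM, and Gm8172 opposite Aff2, which had 0.472 CPM.

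Unspliced RNA of a same-strand host gene contains the member's sequence, and its part in the members' counts was not tested. Of the 10 highest such members, most stood above the host. Rps19-ps6, with 143 CPM as mean of the libraries, lay in an intron of Tecpr2, which had 1.89 CPM, and Gm13394, with 119.6 CPM, in an intron of Cfap77, which had none. BC002163, a copy of the complex I gene Ndufs5, had 82.9 CPM in an intron of Zbtb20, which had 35.3 CPM. Gm15801 had 66.4 CPM in Aldh18a1 with 22.1 CPM, Gm13370 had 51.8 CPM in Pnpla7 with 22.6 CPM, Gm12191, a copy of Rpl30, had 31.6 CPM in Cnot6 with 19.8 CPM, and Morf4l1-ps1 had 31.6 CPM in Lpp with 12.7 CPM. Of the 4 exonic overlaps, Gm7666 had 67.3 CPM in Fyb with 0.470 CPM, and Gm10774 had 38.0 CPM in Usp50 with 58.1 CPM. The level of Usp50 includes a single-exon model that adjoins Gm10774. This model had 120 counts in replicate 1 and was not listed in replicate 2, so most of the Usp50 level rests on it. Gm15725 had 2.35 CPM in Lrrc58 with 21.2 CPM, and Gm3226 had 1.88 CPM in Il31ra, which had none. Across chromosomes, chromosomes 2 and 6 held the most members with 20 each, and chromosome X held 19 of its 949 annotated copies.

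Since the design has no second condition, the only comparison was between the libraries, replicate 1 over replicate 2. For a given sum it does not depend on the rule. Of 138 members with a summed count of at least 10, 9 were higher in replicate 1 and 4 lower, by a two-sided exact binomial test with Benjamini-Hochberg adjustment over all 10162 tested genes at 0.05. Among all tested genes 1.65% were higher and 1.60% lower in replicate 1, that is 168 and 163 genes, a split that became 241 (2.37%) and 92 (0.905%) under TMM scaling, where 10 members were higher and 3 lower. At an unadjusted 0.05, 32 of the 138 members and 1247 of all 10162 genes (12.3%) passed. The test holds counting error only and compares these libraries. An edgeR exact test, whose common dispersion was estimated from the same libraries, called 1 member higher and 1 lower, and among all genes 12 higher (0.118%) and 10 lower (0.0984%). With the trend of the ratio on transcript length removed, 2 members were called higher and 5 lower, and among all genes 81 (0.797%) and 107 (1.05%). The median log2 ratio of members was then -0.17, against 0.12 without the removal. Over all genes the medians were -0.03 with the removal and -0.08 without it. No Gapdh copy was among the called members.

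The largest log2 ratio was that of Gm6969 (chr12:24638669-24639010, minus strand), a copy of Cox7a2l, with 54 counts in replicate 1 and 1 in replicate 2. Its level in replicate 1 was 54.3 times that in replicate 2 (95% counting interval 9.34 to 2183; adjusted p = 3.8e-13, exact binomial test). Of the counts of Gm10774, 3 fell in replicate 1 and 78 in replicate 2. Its level in replicate 1 was 0.0387 times that in replicate 2 (0.00781 to 0.117; adjusted p = 2.9e-17, exact binomial test). These were the only members called by the edgeR exact test as well, with adjusted p of 1.0e-08 for Gm6969 and 3.7e-10 for Gm10774. Their coding genes were not called: Cox7a2l had 267 and 245 counts and Polr2l 157 and 107.

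Next to both members lay another same-strand single-exon model whose first base was the last base of the member. At Gm6969 the models belonged to a new gene, 667 bases long with 207 counts in replicate 1 and 3052 bases long with 221 counts in replicate 2. At Gm10774 it was a Genomic model of the deubiquitinase-family gene Usp50, 259 bases long and reaching the annotated 3′ end of Usp50, with 120 counts in replicate 1, and none was listed in replicate 2. Member and adjoining model together had 261 and 222 counts at Gm6969 and 123 and 78 at Gm10774. On these sums, an addition chosen after the data were seen, Gm6969 was not called (adjusted p = 0.47, exact binomial test), and Gm10774 was higher in replicate 1 with a log2 ratio of 0.66 (adjusted p = 0.046, exact binomial test). In all, 25 members shared at least 1 base with a same-strand single-exon new model of another gene, and with these models added 8 of 142 tested members were called higher and 3 lower in replicate 1, against 1.64% and 1.59% of all genes.

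**Figure D4:**
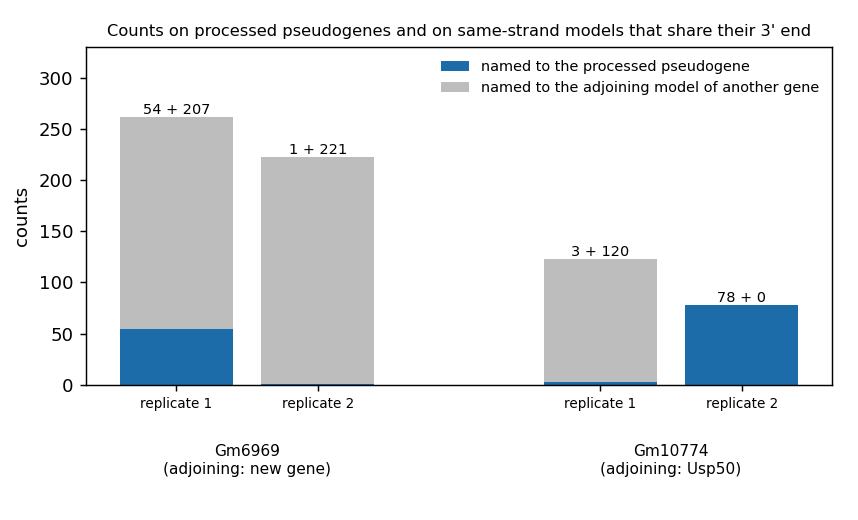
Counts named to Gm6969 and Gm10774 (blue) and to the same-strand single-exon model of another gene that shares their 3′ end (grey), with replicate 1 left of replicate 2 and both counts printed above each bar. The sums of 261 and 222 and of 123 and 78 differ less than the blue parts do.

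The other called members had smaller ratios. Vcp-rs had 109 and 60 counts, against 572 and 651 on Vcp, and was called higher in replicate 1 (adjusted p = 0.0082, exact binomial test). With models that share an end added, its log2 ratio of 0.86 became -0.27 and was not called (adjusted p = 0.52, exact binomial test). Gm12338 with 616 and 392 counts (log2 ratio 0.66), Gm14303, the copy of the ribosomal protein gene Rps29, with 206 and 130 (0.67), Gm14539 with 340 and 219 (0.64) and Gm10231 with 162 and 108 (0.59) were higher in replicate 1 (adjusted p between 1.7e-10 and 0.034, exact binomial test). Their coding genes had 1124 and 746 counts on Cox7c, 226 and 138 on Rps29, 864 and 599 on Usmg5 and 163 and 135 on Atp5g2, in the same libraries. All 4 copies are short, between 171 and 441 bases, and none was called with the length trend removed, where their log2 ratios were between 0.10 and 0.17. Mpc1-ps with 574 and 456 counts had a log2 ratio of 0.34 (adjusted p = 0.0095, exact binomial test), which turned to -0.16 with the length trend removed. Rpl31-ps8 had 75 and 37 counts (log2 ratio 1.01) and Pdcd5-ps, identical to the programmed cell death gene Pdcd5, 24 and 5 (2.05), with adjusted p of 0.014 each (exact binomial test). The coding gene Rpl31 had 49 and 38 counts and Pdcd5 83 and 70, and neither copy was called after that removal.

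Gm15459 was lower in replicate 1, with 1331 and 1932 counts and a log2 ratio of -0.53 (adjusted p = 1.6e-22, exact binomial test). Hspa8 also had a log2 ratio of -0.53. Gm12138 had 119 and 177 counts with a log2 ratio of -0.56 (adjusted p = 0.033, exact binomial test), against 101 and 139 on Akr1b3. It was not called under TMM scaling (adjusted p = 0.11). Cbx3-ps6 had 2 and 16 counts, against 127 and 126 on Cbx3. The level of this copy in replicate 1 was 0.126 times that in replicate 2, with a counting interval of 0.0140 to 0.535 (adjusted p = 0.042, exact binomial test). Among members not called, Ube2n-ps1, identical to the ubiquitin-conjugating enzyme gene Ube2n, had 1 and 13 counts, against 102 and 99 on Ube2n, and a 13-count model of Clock that shares its 3′ end occurred in replicate 1 alone.

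**Figure D5:**
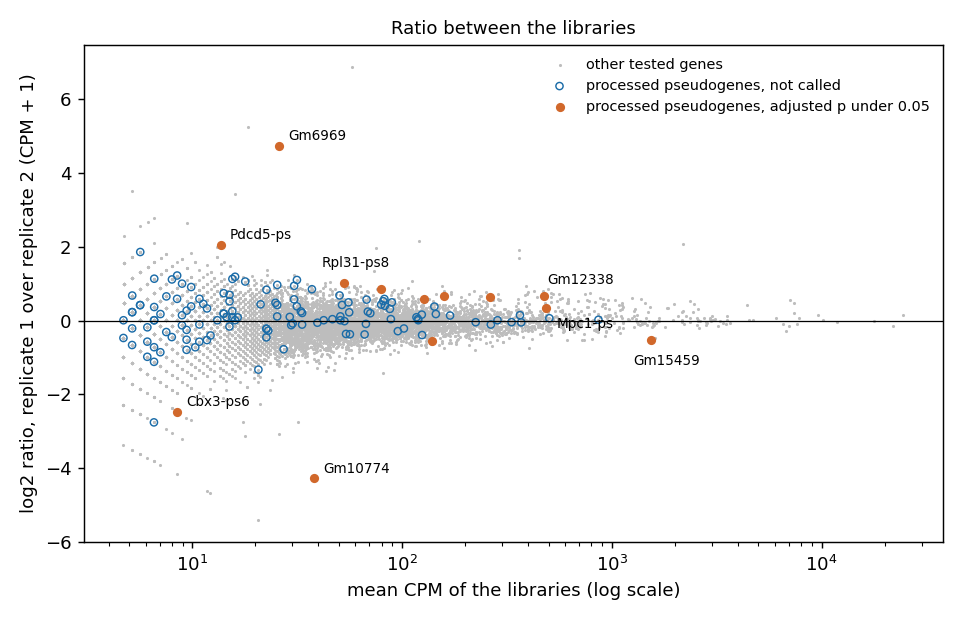
Log2 ratio of replicate 1 over replicate 2 (CPM plus 1) against mean CPM on a log axis, for all tested genes (grey), members not called (open circles) and the 13 members with an adjusted p under 0.05 (orange; some are left unnamed for space). Gm6969 and Gm10774 lie farthest from 0, at 4.74 and -4.28.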

How the data were processed

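Long-read RNA libraries of heart were deposited as counts of reads per transcript model, whole numbers without normalization by the authors, per the file headers, each with a GTF of GENCODE M21 genes (mm10) and the library's own new models. The sources used here name no aligner, version or filter. Positions were taken from GENCODE M21, because 15996 deposited gene lines of replicate 1 had another start or end. Model counts were summed per gene and scaled to 1000000 reference-gene counts (CPM). New genes (2.68% and 2.89% of all counts in replicates 1 and 2) and spike-ins (1.72% and 1.25%) stayed out of the main totals and tests.

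The members, gene groups and rule for named genes were chosen with earlier results of these data known. Named were the highest members of all, by coding-gene group, by type, by multi-exon counts and by same-strand overlap, and those past the library test. The closest coding gene was the best BLAST 2.17.0 match of each pseudogene transcript to coding transcripts on the same strand (e-value 1e-10, at least 50% cover). The main test was the exact binomial test (scipy 1.17.1) on counts of genes with a sum of at least 10. It was tried on simulated counts that held counting error only, so that trial could not show how the test behaves under a wider spread. Log2 ratios used CPM plus 1. Alternatives used edgeR 4.0.16 and DESeq2 1.42.0. Without molecular identifiers several reads may stem from 1 molecule, so intervals (exact Clopper-Pearson, 95%) cover counting error only. Some genes and sequences are not reported here.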

Additional observations from a re-analysis of the deposited data

Results flagged for a closer look

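A new gene that names no reference gene adjoined Gm6969 on the same strand and had 207 counts in replicate 1 and 224 in replicate 2, a sum of 431. It was singled out because new genes took no part in the main comparison between the libraries. Its count also lies far above the 3 counts that a count of 0 allows. Its single-exon models entered only the sums with Gm6969, an addition chosen after the data were seen. Why the ratio of Gm6969 differed between the libraries was not tested.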

How the results depend on the processing

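No paired analysis was possible because both libraries belong to 1 group, and leaving out a library leaves no test between libraries. Members higher in replicate 1 numbered 9 in the main test, 2 with the length trend removed and 1 with the edgeR exact test. Lower ones numbered 4, against 2 with no minimum count and 1 with the edgeR exact test. None of the 13 called members kept its call and direction under every alternative. Gm6969 and Gm10774 failed only with adjoining models added, a setting chosen after the data were seen. Under TMM or DESeq2 scaling, all-model totals and reference identifiers alone, the counts were 9 or 10 and 3 or 4. Log2 ratios turned for Mpc1-ps (-0.16, length trend removed) and, with adjoining models added, for Vcp-rs (-0.27) and Gm10774 (0.66). Gm12138 was not called under TMM or DESeq2 scaling. The cause was not tested. Replicates set the count share between 1.07% and 1.11%, the single-exon share between 98.7% and 98.8%, the Known share between 99.27% and 99.34%, and members with 3 counts in 1 library between 180 and 187. Without Gm15459 the count share was 0.935%, the single-exon share 98.5% and the Known share 99.2%; without the Gapdh copies, chosen after the data were seen, the count share and single-exon share were 0.864% and 98.5%. As a mean over members the single-exon share was 92.2%. With a minimum sum of 1 there were 498 members, 52 on a coding gene's strand and body, with a single-exon share of 98.5% and a Known share of 99.04%; with a minimum of 10 there were 138, 16, 99.01% and 99.6%. By exons, 4 members overlapped a coding gene in place of 25.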
